A study of Mus musculus with 3 samples.

Results

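The AP-2 family members Tfap2a, Tfap2b, Tfap2c and Tfap2e, which encode AP-2α, AP-2β, AP-2γ and AP-2ε, were followed through the cell types of the mouse vomeronasal organ (VNO). The 4 members were taken by name from the 32285 genes of the files and measured in 15711 cells. The remaining family member, Tfap2d, had 0 UMIs (unique molecular identifiers, the counted molecules) in every library. The VNO detects pheromones through vomeronasal sensory neurons (VSNs), which are either apical, with V1R receptors, or basal, with V2R receptors.

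There were 3 single-cell libraries of dissociated and frozen VNO cells from male mice on a mixed background of C57 BL/6J and 129P2/OlaHsd. The P10 control was OMPCre heterozygous and was taken on postnatal day 10. The P10 mutant was OMPCreR26AP2e double heterozygous at the same age, and the adult mutant had that genotype at 3 months. OMPCre places the Cre recombinase under the olfactory marker protein gene, Omp, which is switched on as VSNs mature, and the control carried it too. R26AP2e is an AP-2ε transgene at the Rosa26 locus. Its sequence is not given in the sources used here, so RNA of the transgene and of the endogenous gene cannot be told apart in the Tfap2e count. The number of animals in each library is not given in these sources either. With 1 library in each group no test was made. Genotype cannot be told apart from library at P10, nor age from library between the mutants, and every interval in square brackets is a 95% interval for counting error only.

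AP-2 proteins bind DNA as homodimers or heterodimers of family members, through a conserved helix-span-helix region, at GC-rich palindromes. AP-2α and AP-2γ are known for roles in the epidermis, the neural crest and the trophoblast. AP-2ε marks the basal lineage of the VNO, in which it is needed for VSNs to keep their V2R identity.

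In GENCODE M21 on GRCm38 the members lie on 4 chromosomes. Tfap2a (ENSMUSG00000021359) is at chr13:40715302-40738376 on the minus strand, where the antisense transcript Gm26688 overlaps it. Tfap2b (ENSMUSG00000025927) is at chr1:19208914-19238576 on the plus strand, Tfap2c (ENSMUSG00000028640) at chr2:172549593-172558622 on the plus strand, and Tfap2e (ENSMUSG00000042477) at chr4:126716006-126736240 on the minus strand. The 250 bases upstream of the RefSeq start of Tfap2e are shown as the promoter region of the endogenous gene. They lie at chr4:126736270-126736519 of GRCm38.p6, are read on the minus strand, and have a GC content of 59.2%.

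Tfap2e upstream: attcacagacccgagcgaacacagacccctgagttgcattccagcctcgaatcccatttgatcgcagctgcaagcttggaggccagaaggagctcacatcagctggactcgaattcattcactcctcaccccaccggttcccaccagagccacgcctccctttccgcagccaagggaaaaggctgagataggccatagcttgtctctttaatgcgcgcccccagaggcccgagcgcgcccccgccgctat

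The AP-2 palindrome GCCNNNGGC, which reads the same on both strands, had 0 matches in this stretch, and 13.7% of the 32851 RefSeq windows of this length held it. Over the full windows of 300 bases, 0 of the 4 windows of Tfap2a, Tfap2b and Tfap2e held it, beside 16.6% of all windows.

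Barcodes with 200 to 9000 genes and at most 10% mitochondrial UMIs were kept. These were 4795, 3956 and 6960 cells of the P10 control, the P10 mutant and the adult mutant, with 62269401, 53961794 and 57257139 UMIs. Cells of the adult mutant were shallower, with a median of 5010.5 UMIs against 10236 and 10766.5. The libraries shared 21 to 30 barcodes in pairs, of which 4 to 9 were kept. Clusters were named from marker genes, which gave 37 cell types: 1331 neuronal, 4297 epithelial, 3403 stromal and 4428 immune cells, and 2252 cells stayed unnamed. Levels are given as CPM, the UMIs of a gene per 1000000 UMIs of the same cells. Immune cells, not known for Tfap2e, served as the background for free RNA.

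Levels over whole libraries differed, but they also depend on which cell types each library held. Over all kept cells Tfap2a was at 5.56, 5.0 and 7.84 CPM, listed from P10 control through P10 mutant to adult mutant as in all such triples here. Tfap2c was at 8.43, 4.37 and 4.45 CPM, and Tfap2e at 9.73, 161 and 52.0 CPM. Of the 525 Tfap2c UMIs of the control, 130 lay in Scgb1b27 epithelium, a type described below with 142 cells there and 1 in each mutant. Tfap2b was nearly absent, with 2, 0 and 9 UMIs. Tfap2e was a gene of neurons in the control, where 93.2% of its UMIs lay in the neuronal compartment and 5.28% in the epithelium. In the mutants most Tfap2e UMIs lay in the epithelium, 70.7% in the P10 mutant and 64.6% in the adult mutant, and the neurons held 21.4% and 21.9%.

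**Figure D1:**
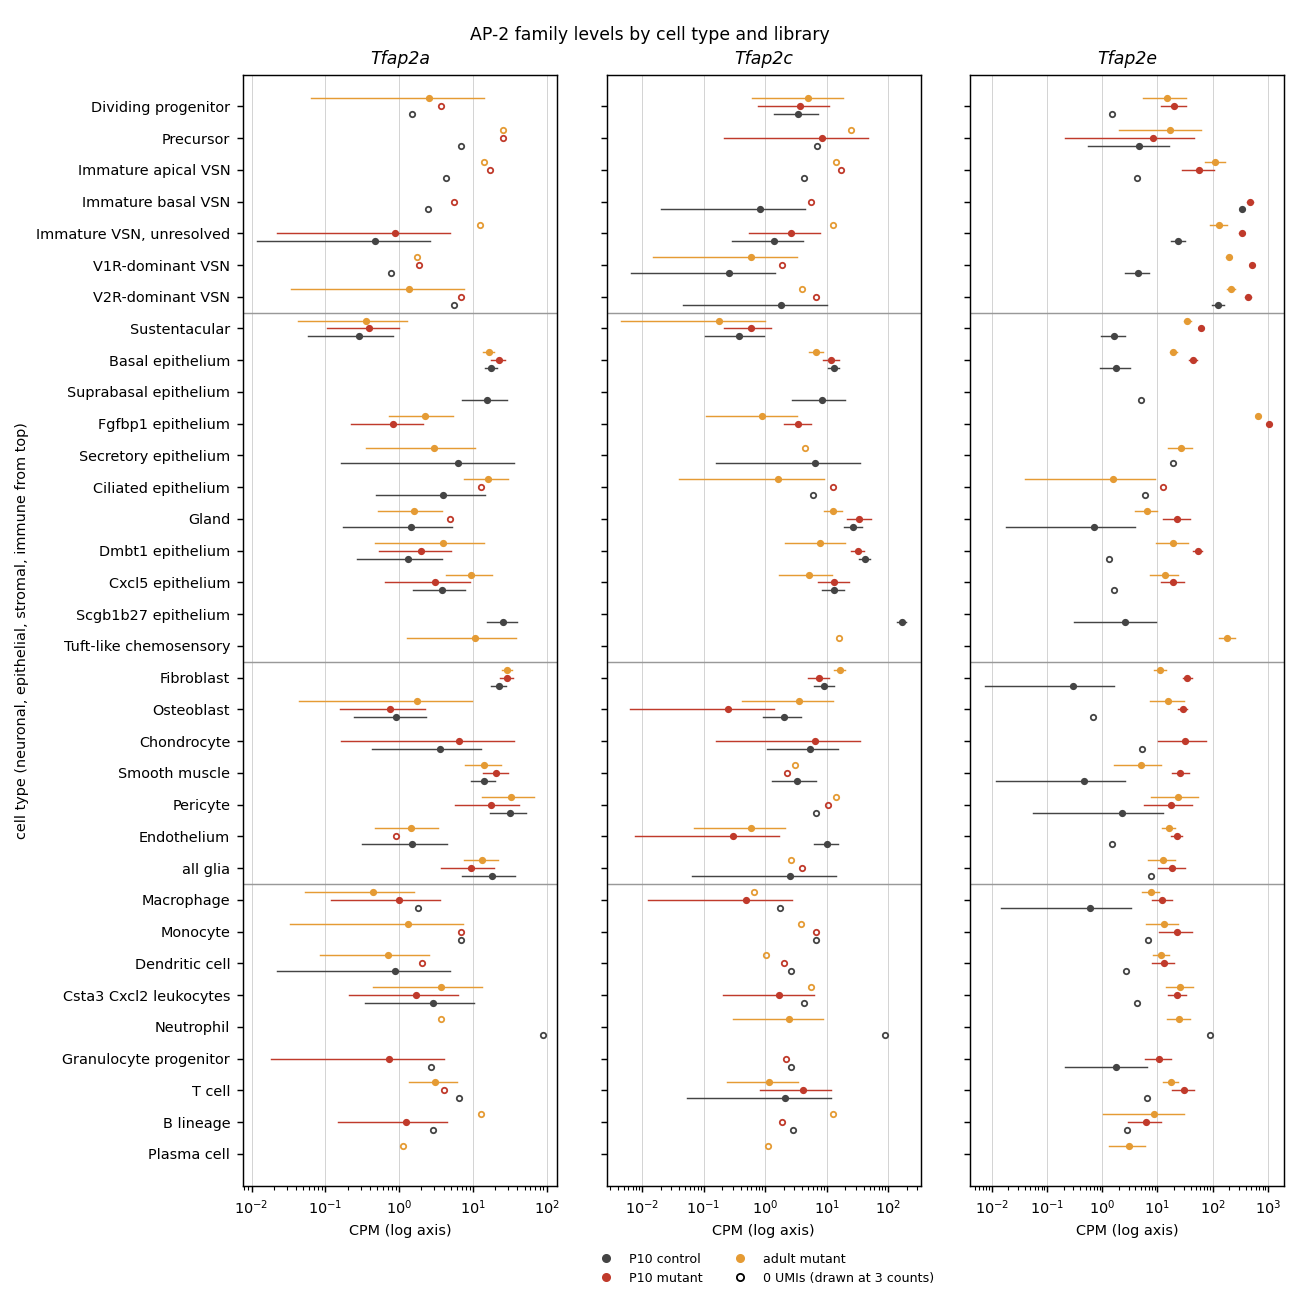
Level of Tfap2a, Tfap2c and Tfap2e (CPM, log axes) in cell types with at least 10 cells in a library, neuronal types at the top and immune types at the bottom. Points are libraries, lines are 95% Poisson intervals, and open circles stand for 0 UMIs, drawn at 3 counts. Tfap2a and Tfap2c stood highest in epithelial and stromal types, and Tfap2e in the mutants stood highest in Fgfbp1 epithelium, at 1064 and 646 CPM.

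Tfap2e was first followed along the neuronal lineage of the control. Dividing progenitors had 0 UMIs of it in 94 cells, which allows up to 1.48 CPM, and precursors had 2 UMIs in 37 cells. Immature basal VSNs had 338 CPM [306, 372] in 87 cells. Immature apical VSNs had 0 UMIs in 55 cells, which allows up to 4.25 CPM. Tfap2e was therefore detected on the basal side before the mature stage. It was lower in mature cells of that side: V2R-dominant VSNs, mature cells with at least 80% of at least 5 receptor UMIs from Vmn2r genes, had 126 CPM [98.2, 159.8] in 26 cells. The level in immature basal VSNs was 2.68 times that [2.07, 3.51].

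V1R-dominant VSNs of the control had 17 Tfap2e UMIs in 158 cells, or 4.36 CPM [2.54, 6.98]. Of these UMIs 14 came from 1 cell, and only 4 cells had any. Without that cell the level was 0.780 CPM. V2R-dominant cells of the control exceeded the V1R-dominant cells by 29 times [16.8, 52.5] with the cell included.

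In the mutants both receptor classes carried Tfap2e. V1R-dominant VSNs had 520.2 CPM [486, 556] in the P10 mutant, where 52 of 59 cells had a UMI and the median cell had 10.0, and 195 CPM [175, 217] in the adult mutant, where 55 of 82 cells had one and the median was 1.00. V2R-dominant VSNs had 436 CPM [376, 502] in the P10 mutant, with a UMI in 17 of 18 cells, and 212 CPM [180.3, 248] in the adult mutant, with a UMI in 39 of 68. The excess of V2R-dominant over V1R-dominant cells seen in the control was not there: the ratio was 0.837 [0.712, 0.981] in the P10 mutant and 1.09 [0.894, 1.32] in the adult mutant. The 2 classes stand close in both mutants in the plot along the lineage.

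**Figure D2:**
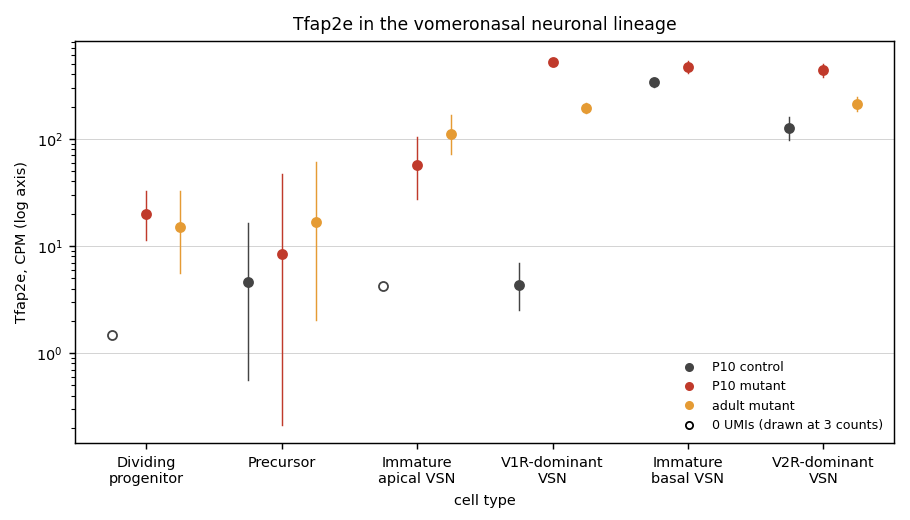
Tfap2e (CPM, log axis) in cell types of the neuronal lineage with at least 10 cells, the apical types before the basal types. Points are libraries with 95% Poisson intervals, and open circles stand for 0 UMIs, drawn at 3 counts. In the control only the basal types stood above 100 CPM, at 338 and 126, and in the mutants the V1R-dominant VSNs did too, at 520.2 and 195.

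In V1R-dominant VSNs the P10 mutant stood 119 times above the control [74.1, 206], in a comparison in which 9.57% of genes passed 2-fold in either direction. Without the top cell of each library, with 14 and 70 UMIs, the ratio was 635. In V2R-dominant VSNs the P10 mutant stood 3.45 times above the control [2.61, 4.61]. This class had fewer than 50 cells in both P10 libraries, so no share of all genes was computed for it. Within mature VSNs as a whole, which include cells with too few or mixed receptor UMIs, the levels were 19.2, 485 and 207 CPM.

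The adult mutant stood below the P10 mutant in both classes. Its level was 0.375 times that of the P10 mutant in V1R-dominant cells [0.329, 0.426], where 16.9% of genes passed 2-fold, and 0.487 times in V2R-dominant cells [0.392, 0.604]. It was 1.68 times above the control in V2R-dominant cells [1.26, 2.26]. Omp varied less. It was at 375, 295 and 269.7 CPM in V1R-dominant cells and at 373, 374 and 420.1 CPM in V2R-dominant cells.

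Less mature neurons of the mutants carried Tfap2e as well. Immature basal VSNs of the P10 mutant had 467 CPM in 36 cells, 1.38 times the control [1.18, 1.62]. Their clusters went opposite ways: one had 225 CPM [195, 258] in the control and 482 CPM [416, 556] in the P10 mutant, and the other had 659 CPM [573, 754] against 429 CPM [331, 546]. Immature apical VSNs had 57.2 CPM [27.4, 105] in the P10 mutant, from 10 UMIs in 2 of 16 cells, and 112 CPM [71.7, 166] in the adult mutant, from 24 UMIs in 8 of 20 cells. Immature VSNs that could not be assigned to a side had 23.5, 337 and 129 CPM. Dividing progenitors had 19.9 CPM [11.4, 32.4] and 15.1 CPM [5.53, 32.8], levels whose intervals reached those of the immune cells of the same libraries, at 14.3 [11.9, 16.9] and 11 CPM [9.38, 12.8].

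Genes of the apical and basal programs were read beside Tfap2e in the same classes. Gnai2, the G protein subunit of apical VSNs, was at 2733, 1938 and 1532 CPM in V1R-dominant cells and at 326, 1270 and 436 CPM in V2R-dominant cells. Gnao1, the subunit of basal VSNs, was at 19.2, 90.5 and 26.5 CPM in V1R-dominant cells and at 465, 379 and 486 CPM in V2R-dominant cells. Meis2, a transcription factor of apical VSNs, was at 812, 694 and 500.0 CPM in V1R-dominant cells and at 108, 299 and 110.0 CPM in V2R-dominant cells. Robo2, an axon guidance receptor of basal VSNs, was at 150.0, 107 and 107 CPM in V2R-dominant cells. The V2R-dominant cells of the P10 mutant, 18 in number, thus held more Gnai2 and Meis2 RNA than those of the other libraries. The part of free RNA or of doublets in these values was not tested.

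To compare shares of cells at 1 depth, cells were thinned to 2000 UMIs, and shallower cells were left out. A Tfap2e UMI was then found in 1.42%, 61.1% and 35% of V1R-dominant cells and in 16.7%, 47.1% and 35% of V2R-dominant cells. Immune cells gave 0.142%, 3.28% and 2.44%, and 0.358%, 10.5% and 5.81% without thinning. The highest immune cell had 1, 3 and 4 Tfap2e UMIs.

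The highest Tfap2e level of the mutants was not in neurons. It was in Fgfbp1 epithelium, a group of cells with keratins Krt8, Krt18 and Krt19 and with Fgfbp1, which encodes a secreted binding protein of fibroblast growth factors. Fgfbp1 epithelium had 209 cells in the P10 mutant, 112 in the adult mutant and 1 in the control, so the type and the mutant libraries cannot be told apart. Tfap2e, left out of the clustering genes, was at 1064 CPM [1035, 1093] in the P10 mutant and at 646 CPM [613, 680.1] in the adult mutant. A UMI was found in 191 of 209 and in 106 of 112 cells, and after thinning in 81.1% and 73.1%.

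The median cell of Fgfbp1 epithelium had 18 Tfap2e UMIs in the P10 mutant and 11 in the adult mutant, and the highest had 179 and 55. It stood 2.05 times above V1R-dominant VSNs in the P10 mutant [1.90, 2.20] and 3.31 times in the adult mutant [2.94, 3.74]. The adult mutant had 0.607 times the level of the P10 mutant [0.572, 0.644], where 18.3% of genes passed 2-fold. This type held 59.4% of all Tfap2e UMIs of the P10 mutant and 48.0% of those of the adult mutant, with 9.02% and 3.86% of all UMIs.

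**Figure D3:**
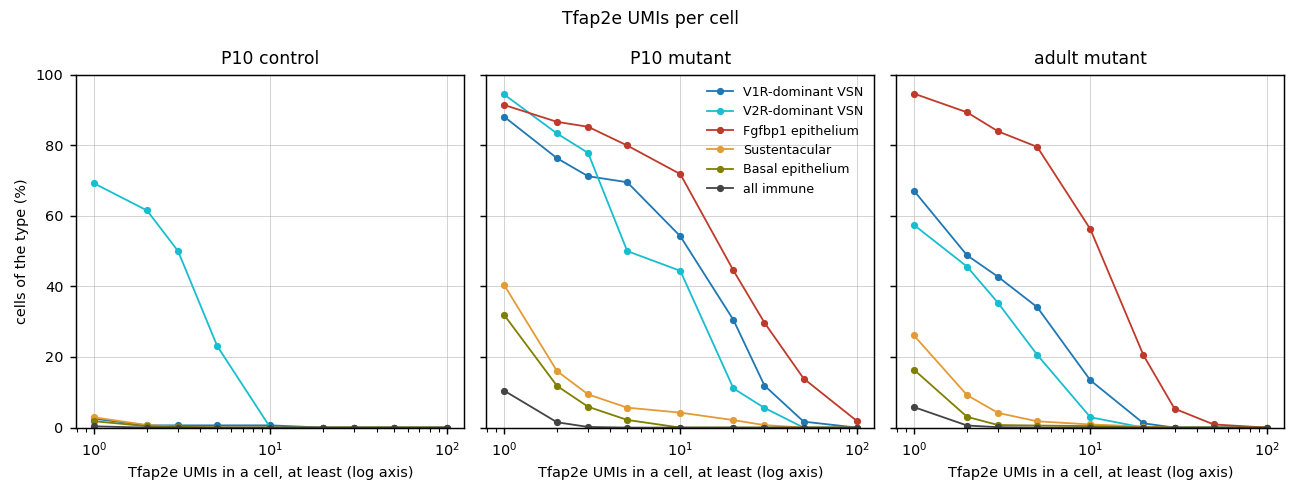
Share of cells (%) with at least a given number of Tfap2e UMIs (log axis), by type, in each library, without thinning and for types with at least 10 cells. In the P10 mutant the curve of Fgfbp1 epithelium lay above the other types from 2 UMIs on, and in the adult mutant at every number up to 50, and no immune cell reached 5 UMIs.

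Because the control gave 1 cell to that cluster, cells with at least 10 Fgfbp1 UMIs were also taken whatever their cluster, a rule set after the data had been seen. There were 92, 188 and 107 such cells. Tfap2e was at 2.28 CPM [1.09, 4.19], 685 CPM [666, 705] and 416 CPM [393, 439.7] in them. In the control 72 of the cells were sustentacular, and their Tfap2e level was 0.907 CPM. The sustentacular cells among them had 89.3 CPM in the P10 mutant (52 cells) and 58.1 CPM in the adult mutant (22 cells), so cells that shared Fgfbp1 did not share one level of Tfap2e.

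Tfap2e in Fgfbp1 epithelium came with little Omp. Omp was at 3.08 and 2.71 CPM there, from 15 and 6 UMIs in the P10 and adult mutant. Immune cells had 0.663 and 0.986 CPM of Omp, from 6 and 15 UMIs. Fgfbp1 epithelium thus gave 345 and 238 Tfap2e UMIs for each Omp UMI. V1R-dominant VSNs gave 1.76 and 0.723 Tfap2e UMIs for each Omp UMI, V2R-dominant VSNs 1.16 and 0.505, and immune cells 21.5 and 11.1. Sustentacular cells gave 16.1 and 9.65, and basal epithelium, with only 5 and 7 Omp UMIs, 35.8 and 26.3. In the control the same ratio was 0.0116 in V1R-dominant cells, 0.338 in V2R-dominant cells and 0.188 in immune cells. The separation of Fgfbp1 epithelium from the neurons is visible in the plot of Tfap2e against Omp.

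**Figure D4:**
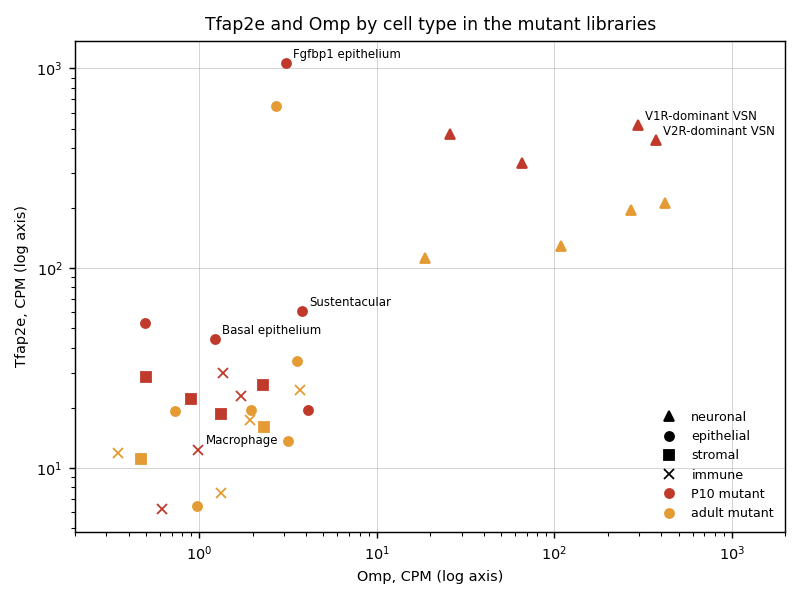
Tfap2e against Omp (both CPM, log axes) in the mutant libraries, 1 point for each type and library with at least 10 Tfap2e UMIs and at least 1 Omp UMI, with the shape giving the compartment and the color the library. Fgfbp1 epithelium lay at 1064 and 646 CPM of Tfap2e with 3.08 and 2.71 CPM of Omp, and V1R-dominant VSNs at 520.2 and 195 CPM of Tfap2e with 295 and 269.7 CPM of Omp.

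Sustentacular cells, the supporting cells of the sensory epithelium, had 1.62 CPM of Tfap2e in the control, 60.8 CPM [56.2, 65.8] in the P10 mutant and 34.4 CPM [29.7, 39.7] in the adult mutant. The P10 mutant stood 37.5 times above the control [23.2, 64.8], where 4.62% of genes passed 2-fold. The level was 4.26 and 3.14 times that of immune cells in the P10 and adult mutant. In the control it was 3.70 times the immune level [1.07, 19.7], from 17 UMIs against 3, so an excess was present there too. It was uneven: 24 cells of the P10 mutant and 6 of the adult mutant had at least 5 UMIs, with up to 38 and 22. In the P10 mutant the sustentacular cells with at least 5 Tfap2e UMIs, a split made after the data had been seen, had Fgfbp1 at 322 CPM against 128 in those with none, Krt19 at 761 against 492, and the sustentacular gene Fezf2 at 249 against 341. This split was also one of depth, with medians of 32599 and 15318 UMIs. Cells with 1 to 4 Tfap2e UMIs were near those with none, with Fgfbp1 at 131 CPM, Krt19 at 429.8 CPM and Fezf2 at 347 CPM. At the limit of 5% mitochondrial UMIs few sustentacular cells were left, and their Tfap2e level was 0 in 51 cells of the control and 26.1 CPM in 29 cells of the P10 mutant.

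Basal epithelium had 1.80, 44.1 and 19.3 CPM of Tfap2e, which was 24.6 times higher in the P10 mutant than in the control [13.7, 48.5], where 7.34% of genes passed 2-fold. Its level was 3.09 and 1.76 times the immune level in the mutants, and 4.10 times in the control [1.11, 22.6], from 12 UMIs against 3. Dmbt1 epithelium, epithelial cells named for the mucosal glycoprotein gene Dmbt1, had 0, 53.3 and 19.5 CPM, or 3.73 and 1.78 times the immune level. Fibroblasts had 0.295, 34.8 and 11.1 CPM, and in the adult mutant their ratio to immune cells was 1.01 [0.755, 1.34]. In the P10 mutant 1 fibroblast had 29 UMIs, and the level without that cell was 26.7 CPM. The 3 fibroblasts of that library with at least 10 Fgfbp1 UMIs held 45 of its 119 fibroblast Tfap2e UMIs. In its osteoblasts 1 such cell held 24 of 113. Whether these were mixed cells was not tested. Osteoblasts had 0, 28.5 and 15.8 CPM, endothelium 0, 22.2 and 16 CPM, and Cxcl5 epithelium, named for a chemokine gene, 0, 19.5 and 13.7 CPM. Gland cells, which make lipocalins and odorant-binding proteins, had 0.714, 22.7 and 6.44 CPM, and Secretory epithelium of the adult mutant had 26.4 CPM [15.6, 41.7] in 179 cells. Immune cells had 0.438, 14.3 and 11 CPM, and they too stood above the control in the P10 mutant, by 32.6 times [10.9, 160.0].

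Single cells weighed on the values of rare epithelial types. Tuft-like chemosensory cells of the P10 mutant had 430.0 CPM, but 30 of the 32 UMIs came from 1 of 4 cells and the level without it was 33.9 CPM. In the adult mutant they had 185 CPM [129, 258], with a UMI in 8 of 20 cells and up to 15 in a cell, and 113 CPM without that cell. Ionocytes of the adult mutant had 143 CPM in 9 cells, with 13 of 16 UMIs in 1 cell.

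A type was compared between 2 libraries where it had at least 50 cells in each and at least 10 UMIs of the member in both together. Tfap2e was at least 2-fold higher in the P10 mutant than in the control in 16 of 16 such types. Several of these types met the minimum through the mutant alone, such as osteoblasts (113 UMIs against 0) and endothelium (74 against 0). With 0 UMIs in the control such a type could only be called higher. Immune types were among them, and V1R-dominant VSNs are part of the mature VSNs. Over the same types 4.46% of all pairs of a gene and a type were at least 2-fold higher, 4.47% at least 2-fold lower and 8.93% either. Between the mutants it was at least 2-fold lower in the adult in 5 of 13 types and at least 2-fold higher in 0, beside 10.6% and 9.25% of all pairs, and 19.9% either. The 5 types were mature VSNs, V1R-dominant VSNs, basal epithelium, fibroblasts and smooth muscle.

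Tfap2a was found in basal epithelium and in several other epithelial and stromal types, and hardly in neurons. Neuronal cells had 1, 1 and 2 UMIs of it in 747, 303 and 281 cells. Basal epithelium, with keratins Krt5 and Krt14 and with Trp63, the regulator of basal cells, had 17.5 CPM [14.5, 21] in the control, 22.2 CPM [17.8, 27.3] in the P10 mutant and 16.3 CPM [13.8, 19] in the adult mutant. The intervals of the control and of both mutants overlapped. The P10 mutant to control ratio was 1.27 [0.952, 1.68] and the adult to P10 mutant ratio 0.733 [0.562, 0.961].

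The basal cells stood apart from sustentacular cells and from Fgfbp1 epithelium. Their Tfap2a level was 61.1 times that of sustentacular cells in the control [20.4, 301], 57.4 times in the P10 mutant and 45.6 times in the adult mutant. Sustentacular cells had 0.286, 0.387 and 0.357 CPM, at or below the immune levels of 0.438, 0.774 and 0.986 CPM. Fgfbp1 epithelium had 0.822 and 2.26 CPM, so basal cells stood 27 and 7.19 times above it. Suprabasal cells of the control had 15.3 CPM [7.01, 29.1], an interval that overlapped that of basal cells. Ciliated cells of the control had 3.97 CPM [0.481, 14.4], from 2 UMIs, with an interval just below that of basal cells. In the adult mutant ciliated cells had 16 CPM [7.67, 29.4], and the intervals overlapped. Scgb1b27 epithelium, named for a secretoglobin gene, had 25.7 CPM [15.7, 39.7] in the control, from 20 UMIs in 12 of 142 cells.

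Fibroblasts had Tfap2a too. They had 22.4 CPM [17.6, 28] in the control, 29 CPM [23.5, 35.3] in the P10 mutant and 29.1 CPM [25, 33.6] in the adult mutant. Their ratio to basal epithelium was 1.28 [0.946, 1.72], 1.31 and 1.79 [1.44, 2.23]. Osteoblasts, also mesenchymal cells, had 0.90, 0.756 and 1.76 CPM, and fibroblasts stood 24.9, 38.3 and 16.5 times above them. Endothelium was low too, at 1.51, 0 and 1.45 CPM from 3, 0 and 5 UMIs. Smooth muscle had 13.9, 20.7 and 14.1 CPM and pericytes, the mural cells of capillaries, 31.4, 17.8 and 32.7 CPM from 14, 5 and 7 UMIs.

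Glia, taken as 1 group, had 17.9 CPM [7.20, 36.9] of Tfap2a in 54 cells of the control, 9.28 CPM [3.73, 19.1] in 70 cells of the P10 mutant and 13.4 CPM [7.49, 22.1] in 150 cells of the adult mutant. The intervals of the 3 libraries overlapped. The 3' libraries are stranded, so reads of the antisense Gm26688 fall on the other strand, but how the counting treated strand is not given in the sources used here.

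Tfap2c was higher in the epithelium than in the stroma at P10, at 15.5 against 5.31 CPM in the control and 7.49 against 2.20 CPM in the P10 mutant. In the adult mutant it was at 5.31 CPM in the epithelium and at 8.56 CPM in the stroma. Scgb1b27 epithelium had 167 CPM [139, 198] in 142 cells of the control, 3.99 times Dmbt1 epithelium [3.04, 5.26], and each mutant gave it 1 cell. This value came mostly from deep cells: 1 cluster of 22 cells with a median of 24992 UMIs had 198 CPM, with a UMI in 16 cells and up to 15 in a cell, and the remaining clusters had medians of 1095 to 1419 UMIs. The mean of the cells' own levels was 52.4 CPM, and with at most 5% mitochondrial UMIs the level was 95.5 CPM.

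Dmbt1 epithelium had 41.8 CPM of Tfap2c [33.8, 51.1] in the control, 32.1 CPM [24.7, 40.9] in the P10 mutant and 7.81 CPM in the adult mutant, from 4 UMIs in 21 cells. Gland cells had 27.1 CPM [19.2, 37.3], 34 CPM [21.1, 52.0] and 12.9 CPM [9.20, 17.5]. Cxcl5 epithelium had 13, 13.4 and 5.26 CPM. The cells of the type named Secretory epithelium had 1 UMI in 18 cells of the control and 0 in 179 of the adult mutant, which allows up to 4.40 CPM. Dmbt1 epithelium, gland cells and Cxcl5 epithelium were each lowest in the adult mutant, with intervals that overlapped in Cxcl5 epithelium. The adult to P10 mutant ratio in gland cells was 0.378 [0.218, 0.675], but it compared different clusters. Of the 27 P10 mutant cells 25 lay in a cluster with 35.6 CPM, and the 285 adult cells lay in other clusters, where 60 cells held all 40 UMIs at 14.7 CPM. The adult level was 1.76 CPM as a mean of the cells' own levels and 4.30 CPM with clusters made at resolution 2.

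Basal epithelium had both genes, with Tfap2c at 13.2 CPM [10.6, 16.2], 11.8 CPM [8.73, 15.7] and 6.82 CPM [5.26, 8.69]. The adult to P10 mutant ratio was 0.576 [0.391, 0.855], and 17.3% of genes passed 2-fold there. Fibroblasts had 9.13 CPM, 7.61 CPM and 16.4 CPM [13.4, 19.9], and the ratio of the adult to the P10 mutant was 2.16 [1.39, 3.45] where 19.2% of genes passed 2-fold. The fibroblasts of the 2 libraries lay mostly in different clusters. In the adult mutant 132 cells led by Angptl7 had 32.8 CPM and 547 cells had 9.89 CPM. In the P10 mutant 221 cells had 3.35 CPM, 44 cells had 39.9 CPM, and clusters of 21 and 19 cells had 0 UMIs.

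In sustentacular cells Tfap2c was at 0.382, 0.580 and 0.178 CPM, and immune cells had 0.146, 0.663 and 0.329 CPM. Dmbt1 epithelium stood 109.5, 55.2 and 43.8 times above sustentacular cells. Fgfbp1 epithelium had 3.49 CPM in the P10 mutant and 0.905 in the adult mutant, at a ratio of 0.259 [0.0290, 1.09]. Neuronal cells had 1.37, 1.33 and 0.795 CPM, and dividing progenitors 3.46 CPM [1.39, 7.13] in the control. Endothelium of the control had 10.1 CPM, and 1.04 CPM without 1 cell that held most of its UMIs.

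**Figure D5:**
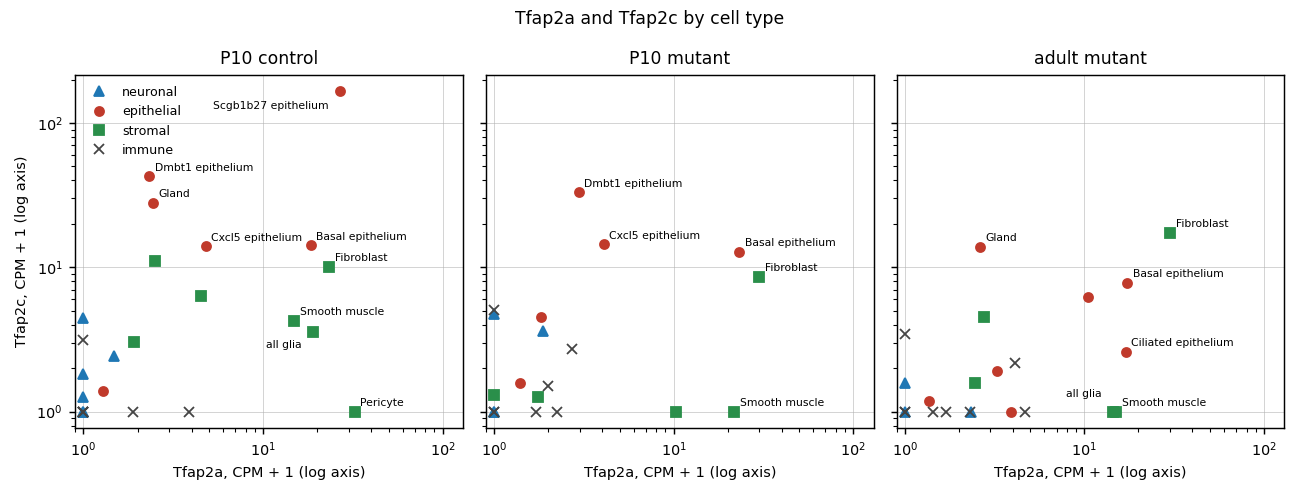
Tfap2c against Tfap2a (both CPM + 1, log axes) in each library, 1 point for each type with at least 30 cells and 100000 UMIs, colored by compartment. Dmbt1 epithelium and gland cells lay high on Tfap2c with little Tfap2a, pericytes and smooth muscle high on Tfap2a with little Tfap2c, and Scgb1b27 epithelium, basal epithelium and fibroblasts had both.

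In the types with enough cells and UMIs, Tfap2a passed 2-fold between the P10 mutant and the control in 0 of 3. Of all pairs of a gene and a type 8.93% did. Tfap2c was at least 2-fold lower in 2 of 6, osteoblasts and endothelium, beside 4.47% of all pairs. In osteoblasts and endothelium 7.16% and 7.90% of genes passed 2-fold in either direction. The call in endothelium rested on 1 control cell with 18 of the 20 UMIs, without which the type would have had too few UMIs to be compared. The osteoblasts had 9 Tfap2c UMIs in the control against 1 in the P10 mutant. Between the mutants Tfap2a passed 2-fold in 0 of 3 types, beside 19.9% of all pairs of a gene and a type. Tfap2c was higher in the adult in fibroblasts, lower in Fgfbp1 epithelium and past 2-fold in neither direction in the remaining 1 of 3. Of all pairs 9.25% were at least 2-fold higher and 10.6% at least 2-fold lower. The call in Fgfbp1 epithelium rested on 2 UMIs in the adult mutant against 17, and the interval of the ratio, [0.0290, 1.09], included 1.

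Tfap2b had 11 UMIs in all. The control had 2, both in 1 fibroblast, and the P10 mutant had 0. Of the 9 in the adult mutant 6 lay in glia, at 5.35 CPM [1.96, 11.6] in 4 of 150 cells with up to 3 in a cell, 2 in 1 macrophage and 1 in a fibroblast. The glia of the control and of the P10 mutant, 54 and 70 cells, had 0 UMIs, which allows up to 7.68 and 3.98 CPM. The intervals for these counts of 0 reached 9.44 and 4.89 CPM and overlapped that of the adult glia.

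Tfap2a and Tfap2c RNA occurred together in single cells. In basal epithelium 21 of 496 cells of the control had both, where 14.3 would if the genes were independent, and the numbers were 10 against 7.72 of 322 cells in the P10 mutant and 18 against 10.2 of 688 in the adult mutant. In fibroblasts they were 9 against 3.71, 4 against 5.89 and 27 against 15.7. In the deep cluster of Scgb1b27 epithelium 10 cells had both against 8.0, and in the type as a whole 11 against 1.77, a difference that went with cell depth. In Fgfbp1 epithelium of the P10 mutant 15 cells had Tfap2c with Tfap2e against 13.7. Deeper cells are more likely to show any pair of genes, and the part of depth in these counts was not tested beyond that cluster.

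Of 17 epithelial transcription factors and keratins often found with AP-2 factors, 17 had at least 10 UMIs in basal epithelium of each library. Of these 15, 16 and 17 were at 2 or more times their level in the median type. Types low in Tfap2a and Tfap2c came near this, with 11, 13 and 13 in sustentacular cells and 15 and 13 in Fgfbp1 epithelium of the mutants. The share over all genes was not computed. In basal epithelium Krt14 was at 2341, 2214 and 871 CPM and Krt5 at 1142, 924 and 774 CPM. Krt15 was at 1485, 843 and 788 CPM and Trp63 at 211, 184 and 197 CPM. These genes count among the 17 but were also markers by which the type was named. Their high levels there thus followed in part from the naming. None of the 17 passed 2-fold between the P10 mutant and the control in basal cells, with a median log2 ratio of -0.03 beside -0.06 over all genes. Between the mutants 1 of 17 was higher in the adult (Gata3) and 2 were lower (Ovol1 and Krt14), a share near the 17.3% of all genes that passed 2-fold there.

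Fgfbp1 epithelium had the simple keratins and not the basal ones: Krt18 was at 6235 and 6163 CPM and Krt8 at 4293 and 3479 CPM, while Krt5 was at 19.9 and 6.79 CPM, Krt14 at 20.1 and 10.9 CPM and Trp63 at 0.822 and 0.452 CPM. Ovol1, an epithelial transcription factor, was at 467 and 119.9 CPM there, and Grhl3, a factor of barrier formation, at 24 and 3.62 CPM. In fibroblasts, which had Tfap2a as well, 2 of the 17 genes in each library were at 2 or more times the median type.

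Of 10 cofactors and regulators of AP-2 proteins, 4 to 10 had at least 10 UMIs in a type and library with at least 30 cells and 100000 UMIs. Few passed 2-fold, and the direction differed between types. Between the P10 mutant and the control Cited1, a coactivator that binds AP-2, was at least 2-fold lower in basal epithelium, mature VSNs and smooth muscle and at least 2-fold higher in sustentacular cells and Dmbt1 epithelium. In basal epithelium it was 1 of 10 cofactors, beside 7.34% of all genes, and in sustentacular cells 1 of 10, beside 4.62%. Kctd1, an inhibitor of AP-2α, was higher in V1R-dominant VSNs, as 1 of 9, beside 9.57%. Kctd1 was also higher in mature VSNs as a whole and in granulocyte progenitors. Cited4 was lower in osteoblasts, endothelium, macrophages and unassigned immature VSNs, and Kctd15 in endothelium. Wwox was higher in granulocyte progenitors and T cells and lower in B lineage cells. Over all types compared, 8.93% of pairs of a gene and a type passed 2-fold. Fibroblasts had none past 2-fold. Between the mutants Cited1 was lower in the adult in sustentacular cells, basal epithelium, fibroblasts and osteoblasts and higher in Fgfbp1 epithelium, where 18.3% of all genes passed 2-fold. Cited4 was higher in the adult in sustentacular cells, fibroblasts, osteoblasts and a leukocyte type. Kctd1 was higher in dendritic cells and T cells, and Wwox was lower in osteoblasts, macrophages and T cells. Over all types compared, 19.9% of pairs of a gene and a type passed 2-fold between the mutants.

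The genes most like each member were sought by Pearson r of log2(CPM + 5) over 70 sums of cells, 1 for each type and library, among 17306 genes, as a description only. For Tfap2a they were Fst (0.785), Ntf3 (0.785), Col4a5 (0.778), Oat (0.748) and Plekhh2 (0.743). For Tfap2c they were Cd164l2 (0.822), BC006965 (0.813), Cldn2 (0.807), Chrm1 (0.80) and Esrrg (0.781). For Tfap2e they were Cbln1 (0.631), 1700125H20Rik (0.628), Gm2694 (0.620), Glb1l2 (0.617) and Lrrc61 (0.601).

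In the control alone, over 26 sums and 15389 genes, the genes most like Tfap2e were others, namely H2-M10.3 (0.951), Mymk (0.949), Dusp15 (0.94), Vmn2r2 (0.928) and Vmn2r1 (0.923). Vmn2r1 and Vmn2r2 are V2R receptor genes and H2-M10.3 is a class Ib histocompatibility gene of basal VSNs. Tfap2a and Tfap2c correlated at 0.371 over the 70 sums and at 0.464 over the 26. The sums share libraries and differ in depth. Tfap2b, with 11 UMIs, was under the minimum of 50 for this comparison.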

How the data were processed

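Single-cell RNA-seq (10x Genomics 3' v3.1) of 3 VNO libraries was used. The deposited values are UMI counts per gene and barcode, which the authors made with Cell Ranger 4.0.0 (both P10 libraries) and 6.0.1 (adult mutant), per the file headers, on mm10. The study's methods use 5% mitochondrial UMIs as the limit, and 10% was used here. Counts of the kept cells were log-normalized to 10000 per cell and clustered together in scanpy 1.11.5 (2000 variable genes, 30 components, 20 neighbors, Leiden resolution 1). The neuronal clusters were clustered again at resolution 2, and other clusters that held several classes at resolution 1. Clustering did not use the AP-2 genes, the receptor genes or genes of the VSN types. Names came from markers or leading genes and were given after the clusters had been seen. The members, lists and markers were chosen with earlier results of these data known. The text describes types with at least 10 UMIs of a member in a library, immune types as 1 group, some types below that minimum for comparison, and for each member the 5 most alike genes. CPM have exact Poisson intervals, their ratios conditional binomial intervals, and shares Clopper-Pearson intervals. A count of 0 was taken to allow 3 counts. Intervals were tested on simulated counts. Genes passed 2-fold among those with at least 10 UMIs in both libraries together. Free RNA was not corrected and doublets were kept. The alternatives were 5% mitochondrial UMIs, at least 2000 UMIs, removal of the highest Scrublet doublet scores, clustering at resolution 2 or within each library, per-cell means, the top cell left out, 3 receptor UMIs, other thinning and, for the most alike genes, a pseudocount of 1 or the control alone. Glia were reported as 1 group, and their types are not reported here.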

Additional observations from a re-analysis of the deposited data

Results flagged for a closer look

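Tfap2e was also counted in the barcodes that the limits on genes and mitochondrial UMIs left out, which no comparison used. It was at 9.86 CPM [8.58, 11.3] in the 3407 left-out barcodes of the control, 117 CPM [113, 121] in the 4908 of the P10 mutant and 57.2 CPM [53.1, 61.5] in the 3333 of the adult mutant. Both mutant values stood above the control value. The kept cells of the same libraries had 9.73, 161 and 52.0 CPM.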

How the results depend on the processing

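Only 4 ratios between libraries were rerun under the alternatives, those of Tfap2e in V1R- and V2R-dominant VSNs, and the direction of none turned. Ratios of Tfap2a and Tfap2c and those of other types were not rerun. For levels, only the distance from the main value was read. The P10 mutant to control ratio of Tfap2e in V1R-dominant VSNs was 119, and it became 1377 with at most 5% mitochondrial UMIs, 707 without the highest doublet scores, 1056 with each library clustered on its own, 769 at resolution 2 and 635 without the top cell of each library, and in each of these settings the control level fell below 1 CPM. The adult to P10 mutant ratio there was 0.375 and became 0.260 at 5% mitochondrial UMIs. At 5% mitochondrial UMIs the level of Tfap2e in Fgfbp1 epithelium became 1268 CPM in the P10 mutant and 792 CPM in the adult mutant, Tfap2a in basal epithelium of the control 21 CPM, and Tfap2c in Scgb1b27 epithelium 95.5 CPM. As means of the cells' own levels, Tfap2e in Fgfbp1 epithelium became 1033 and 723 CPM, and Tfap2c in Scgb1b27 epithelium 52.4 CPM. With each library clustered on its own Tfap2a in fibroblasts of the control became 16.8 CPM. The cause was not tested. Tfap2c in Dmbt1 epithelium of the control and both ratios of V2R-dominant VSNs stayed within their main intervals in every alternative run for them. Of all levels with at least 10 UMIs, the limit of 5% mitochondrial UMIs put 37 of 88 outside the main interval, and the minimum of 2000 UMIs 1 of 89. Of the 5 most alike genes, the control alone shared 1 with the main list for Tfap2a, 2 for Tfap2c and 0 for Tfap2e. Scrublet called 0 doublets at its own threshold, so the alternative removed the 538, 629 and 848 highest scores. The re-clusterings gave no value for types that won no cluster. No paired analysis was possible because each group has 1 library and no result comes from a test.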
